A study of Mus musculus with 9 samples.

Results

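Polyunsaturated and monounsaturated fatty acids enter membrane phospholipids through a short chain of enzymes. Of the 10 mouse genes described here, all but the cyclooxygenase Ptgs2 belong to that chain. They are the stearoyl-CoA desaturases Scd1 and Scd2, the fatty acid desaturases Fads1 and Fads2, and the elongases Elovl5 and Elovl6. Further members are the acyl-CoA synthetases Acsl3 and Acsl4 and the lysophospholipid acyltransferase Lpcat3. Ptgs2 instead turns arachidonic acid into the precursor of prostaglandins. The 10 genes were taken by gene name from 52306 named genes, as a set put together with earlier results of these data known. Each gene's level is the sum of the FPKM (sequenced fragments per kilobase of transcript, relative to the library's mapped total) of its named transcripts. All 10 passed the minimum mean of 1 FPKM over the 9 libraries, as did 10453 genes in all.

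RNA-seq was made at day 2 from 4T1, an epithelial-type tumour line of the BALB/c mouse mammary gland, in 9 libraries of 3 groups with 3 libraries each. The groups were cells treated with MK1775, also called adavosertib, which inhibits the cell cycle kinase Wee1, cells whose label names a Wee1 siRNA (small interfering RNA) knockdown, and a negative control (NC). All groups were of this single line and in DMEM with fetal bovine serum, and the study set each treatment against NC, under a title on ferroptosis. The MK1775 dose, the vehicle, the siRNA sequences, the make-up of the NC treatment and whether libraries came from separate cultures are not stated in the labels used here, and the siRNA numbers may mark replicates or different siRNAs. The p-values therefore measure only the spread between these libraries, which may be technical.

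Wee1 itself did not fall in the libraries labelled Wee1 siRNA: it had 15.0, 14.7 and 16.8 FPKM with MK1775, 13.1, 15.1 and 15.3 FPKM under the siRNA label, and 11.5, 10.5 and 11.0 FPKM in NC. It rose in both comparisons with NC, by 0.46 with MK1775 (adjusted p = 0.00226) and 0.37 under the siRNA label (adjusted p = 0.00633) on the log2 scale, so the siRNA group is named by its label throughout. Library totals were 321551 to 332950 FPKM and the read depth is unknown. Of 8 epithelial markers, 3 (Krt8, Krt18 and Cdh1) averaged at least 1 FPKM, and the sum of the 8 was 762 to 780 FPKM with MK1775, 704 to 713 FPKM under the siRNA label and 409 to 475 FPKM in NC. The sum of 8 immune markers, of which 3 were at 0 in every library, was 5.44 to 7.80 FPKM with MK1775, 6.78 to 8.64 FPKM under the siRNA label and 8.72 to 10.1 FPKM in NC. Cd14 and Cd68 held most of this sum, and their means were lower in both treated groups. Ptprc, Itgam and Csf1r, all under 1 FPKM, went the other way. Mean Itgam was 0.277 FPKM with MK1775, 0.451 FPKM under the siRNA label and 0 in NC. Mean Ptprc was 0.170, 0.326 and 0.0126 FPKM in the same order. The sum of 7 adipocyte markers, with Lep and Cidec at 0 in every library, was 0.550 to 0.748 FPKM with MK1775, 0.509 to 0.698 FPKM under the siRNA label and 0 to 0.118 FPKM in NC. Sums of 7 fibroblast and 5 endothelial markers stayed at or below 3.60 and 0.595 FPKM. The part of these differences in the results that follow was not tested, and in bulk RNA fewer cells of a type and less RNA per cell cannot be told apart.

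As background, desaturases place double bonds in fatty acyl chains and elongases lengthen the chains. Acyl-CoA synthetases activate free fatty acids, and acyltransferases such as Lpcat3 insert them into phospholipids. Membranes rich in polyunsaturated chains are prone to the iron-dependent lipid peroxidation of ferroptosis, while monounsaturated chains are known to lessen it. Both treated groups are compared with the same 3 NC libraries, so their results are given side by side and are not independent of each other.

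Against NC, 6 of the 10 genes fell with MK1775 and 0 rose, and under the Wee1 siRNA label 6 of 10 fell and 0 rose (limma, Benjamini-Hochberg adjusted p under 0.05 over all genes tested). In the MK1775 comparison 23.1% of all genes tested were called lower and 17.9% higher, and in the siRNA comparison 23.2% were called lower and 19.6% higher. The genes that fell with MK1775 were Scd1, Scd2, Fads1, Fads2, Acsl3 and Lpcat3, and these were also the ones that fell under the siRNA label, while Elovl5, Elovl6, Acsl4 and Ptgs2 passed neither test. None of the 10 was higher at an unadjusted p under 0.05. The genes that fell were all lower at that level in both comparisons, and Acsl4 was so with MK1775 but not under the siRNA label. Over all genes tested, 49% reached that level in either direction with MK1775 and 50.4% under the siRNA label. The groups did not overlap for 6 genes in each comparison, against 54% of all genes tested for MK1775 and 52.2% for the siRNA label. The median log2 fold change of the 10 was -0.50 with MK1775 and -0.54 under the siRNA label, beside -0.04 and -0.01 over all genes tested.

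**Figure D1:**
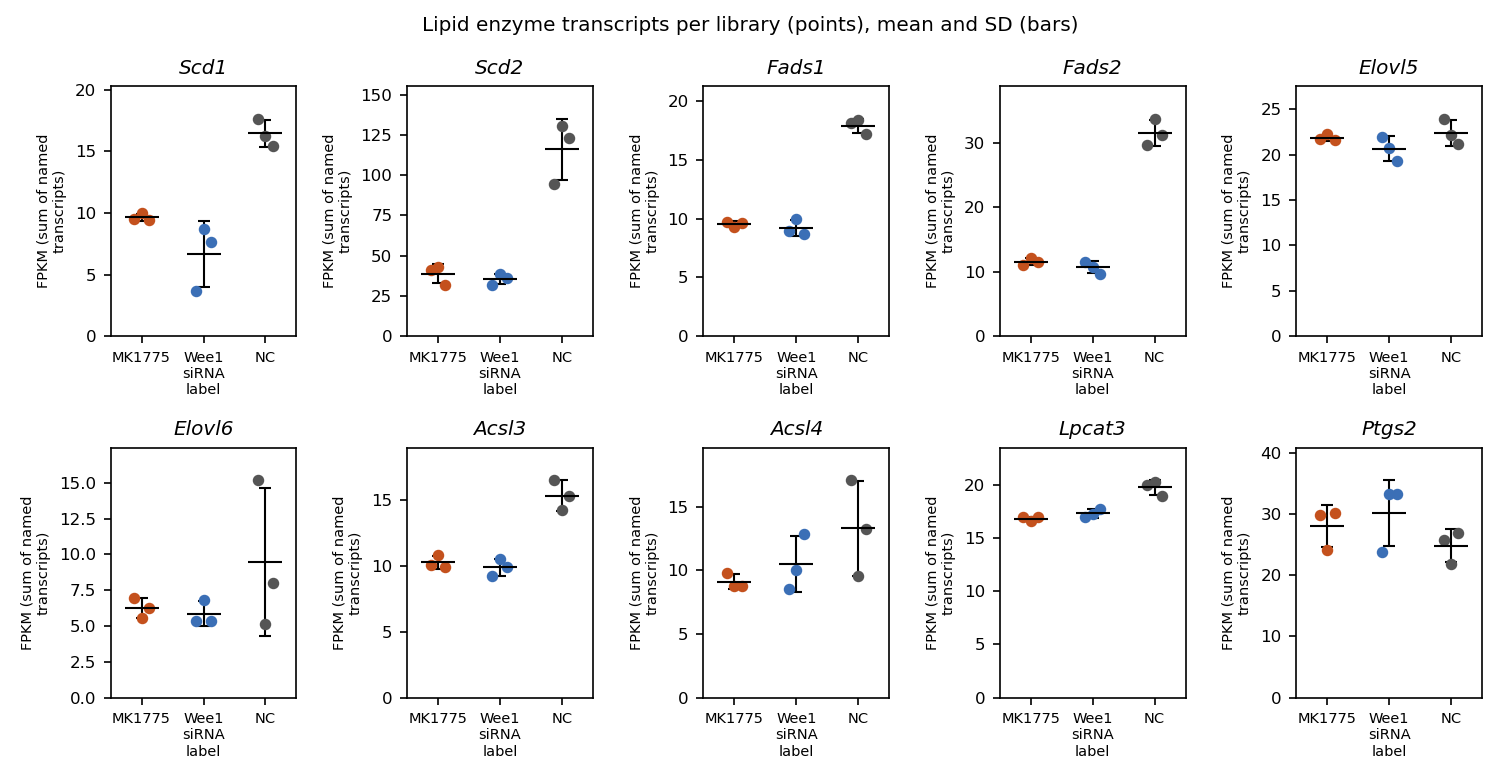
FPKM of each lipid enzyme gene, summed over its named transcripts, in each library (points), with the mean and SD over 3 libraries (bars), for MK1775, the Wee1 siRNA label and NC from left to right. Scd2 and Fads2 show the widest gaps, with every treated library at or below 43.1 and 12.1 FPKM and every NC library at or above 94.3 and 29.7 FPKM, while the groups of Elovl5 and Ptgs2 overlap.

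The stearoyl-CoA desaturases make oleic and palmitoleic acid from saturated fatty acids, and in these cells Scd2 was the more abundant of the pair in every library. Scd2 (GRCm39 chr19:44282113-44295303, plus strand) had 41.2, 43.1 and 31.9 FPKM in MK1775 libraries, 31.9, 38.5 and 36.0 FPKM in libraries labelled Wee1 siRNA, and 94.3, 131 and 123 FPKM in NC libraries. No treated library came near the lowest NC library. Mean FPKM was 3.00-fold lower with MK1775 (log2 fold change -1.56, SE 0.15, adjusted p = 0.00013) and 3.27-fold lower under the siRNA label (-1.67, SE 0.15, adjusted p = 9.07e-05); log2 fold changes here and below are of FPKM + 1. Of all genes tested, 0.268% had a lower log2 fold change than Scd2 with MK1775 and 0.124% under the siRNA label.

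Scd1 (chr19:44382894-44396318, minus strand) had 9.51, 9.99 and 9.40 FPKM with MK1775, 3.63, 8.67 and 7.68 FPKM under the siRNA label, and 17.6, 16.3 and 15.4 FPKM in NC. The treated groups lay below NC without overlap, and siRNA library 1 stood below the other two of its group. The log2 fold change was -0.71 with MK1775 (SE 0.24, adjusted p = 0.046) and -1.26 under the siRNA label (SE 0.24, adjusted p = 0.00381). The MK1775 call was near the threshold: the adjusted p was 0.0504 to 0.113 in 13 of 18 alternative fits, among them those leaving out any 1 MK1775 library (0.0904 to 0.104), any 1 NC library (0.0839 to 0.113) or siRNA library 3 (0.0504), and it was 0.0626 with the replicate number as a block.

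The low Scd1 value of siRNA library 1 went with FPKM listed for a second transcript at the locus. An assembled transcript without a gene name, 4820 bases long beside the 4832 bases of the main Scd1 transcript ENSMUST00000041331, held 6.12 FPKM in siRNA library 1 and 0.00359 to 1.76 FPKM in the other 8 libraries. With it added, Scd1 had 9.76, 10.4 and 9.52 FPKM with MK1775, 9.75, 9.55 and 9.25 FPKM under the siRNA label, and 17.7, 16.8 and 17.2 FPKM in NC. The coefficient of variation was then 4.56% with MK1775, 2.63% under the siRNA label and 2.35% in NC, against 3.26% with MK1775, 40.1% under the siRNA label and 6.80% in NC from named transcripts. On these sums Scd1 fell by 0.74 with MK1775 (SE 0.05, adjusted p = 3.97e-06) and by 0.79 under the siRNA label (SE 0.05, adjusted p = 2.6e-06). The siRNA change was therefore smaller by this count of the locus, and the MK1775 call was firmer.

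Scd2 was held mostly by ENSMUST00000026221, at 38.3, 34.4 and 26.7 FPKM with MK1775, 27.8, 33.6 and 35.6 FPKM under the siRNA label, and 65.4, 112 and 108 FPKM in NC. A second named transcript, ENSMUST00000237039, had 2.90, 8.69 and 5.24 FPKM with MK1775, 4.08, 4.90 and 0.435 FPKM under the siRNA label, and 28.9, 18.3 and 14.6 FPKM in NC, so both transcripts were lower in every treated library than in any NC library. Scd1 and Scd2 are paralogs, and reads from shared sequence can be assigned to either. Between their main transcripts in GENCODE M21, 145 of the 4783 stretches of 50 bases in Scd1 (3.03%) also occurred in Scd2, and the longest shared run was 147 bases. The sum of the pair was 48.4 ± 6.24 FPKM with MK1775, 42.1 ± 6.004 FPKM under the siRNA label and 132 ± 18.3 FPKM in NC (SD, n = 3 each). The deposited Scd2 locus also held Scd4, Mir5114 and an unnamed transcript of 1414 bases, which reached 10.3 FPKM in NC library 1 and at most 1.72 FPKM elsewhere.

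**Figure D2:**
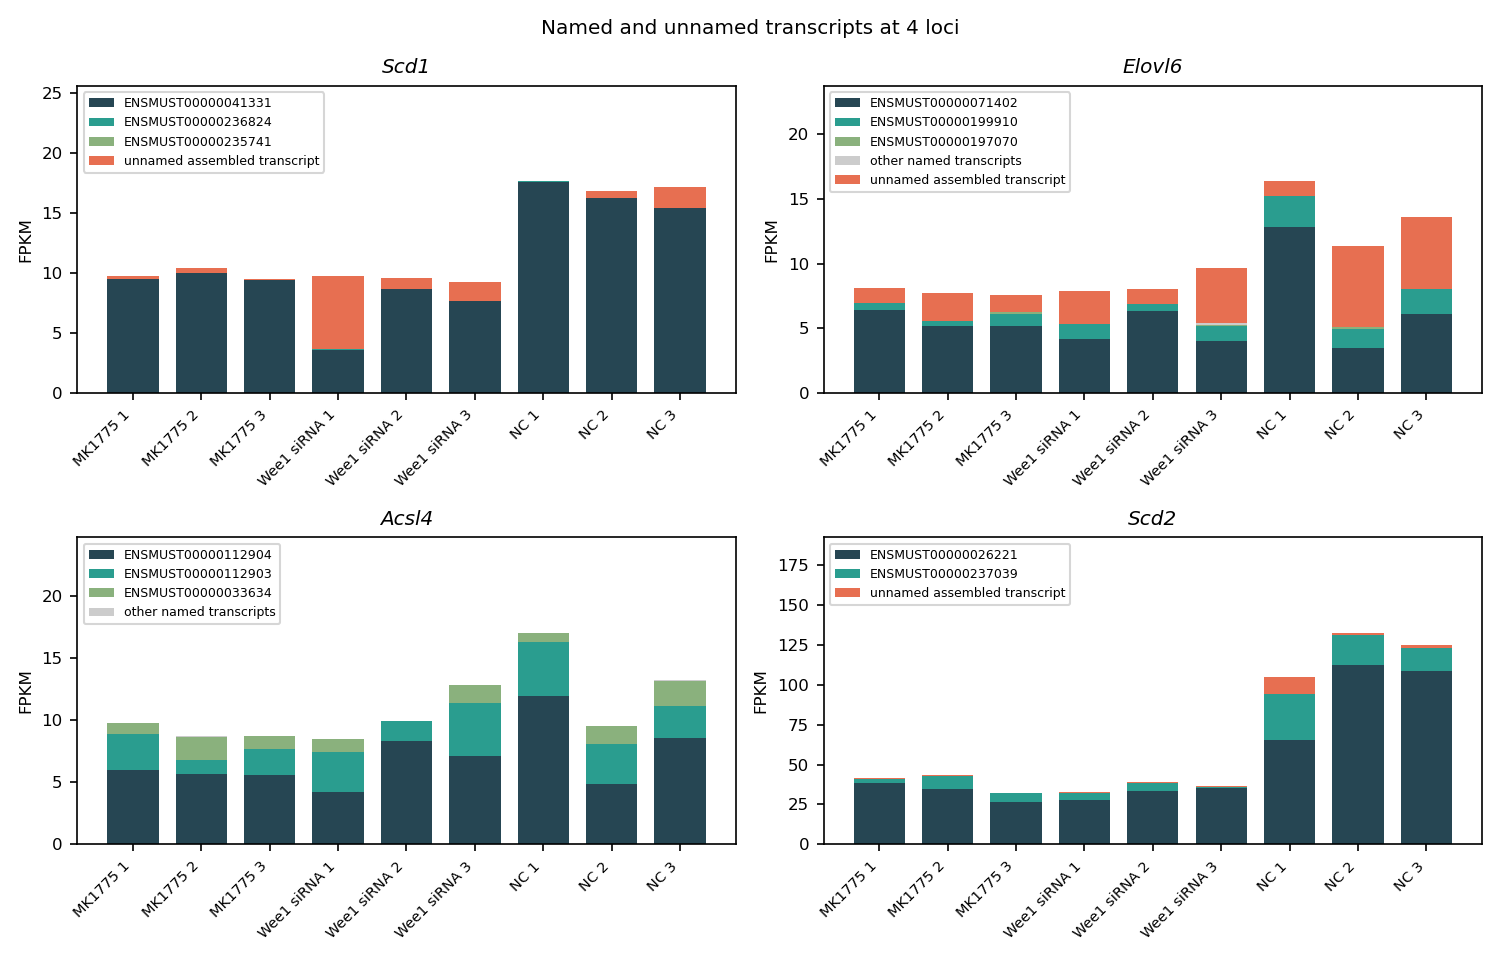
FPKM of transcripts at 4 loci, stacked by library, with the most abundant named transcripts in blue and green shades. Other named transcripts are summed in grey, and unnamed assembled transcripts are in orange. At Scd1 the orange part is 6.12 FPKM in siRNA library 1, and the full height of the bar is close to that of the other treated libraries; at Elovl6 it is 6.27 and 5.56 FPKM in NC libraries 2 and 3.

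Fads2, the delta-6 desaturase, and Fads1, the delta-5 desaturase, act in turn on the essential fatty acids linoleic and alpha-linolenic acid and lead to arachidonic and eicosapentaenoic acid. They lie near each other on chromosome 19, on opposite strands. Fads2 (chr19:10040129-10079110, minus strand) had 11.0, 12.1 and 11.6 FPKM with MK1775, 11.6, 10.7 and 9.72 FPKM under the siRNA label, and 29.7, 33.8 and 31.2 FPKM in NC. Libraries agreed closely within each group and the treated groups were far below NC. Mean FPKM was 2.74-fold lower with MK1775 (log2 fold change -1.38, SE 0.08, adjusted p = 7.88e-06) and 2.96-fold lower under the siRNA label (-1.48, SE 0.08, adjusted p = 5.43e-06). This was the smallest adjusted p of the 10 genes in both comparisons, and 0.440% of genes tested had a lower log2 fold change with MK1775 and 0.297% under the siRNA label.

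Fads1 (chr19:10160252-10174241, plus strand) had 9.71, 9.28 and 9.63 FPKM with MK1775, 8.97, 9.95 and 8.72 FPKM under the siRNA label, and 18.2, 18.4 and 17.3 FPKM in NC. The groups again did not overlap with NC, with a smaller gap than for Fads2. Mean FPKM was 1.88-fold lower with MK1775 (log2 fold change -0.84, SE 0.06, adjusted p = 2.88e-05) and 1.95-fold lower under the siRNA label (-0.89, SE 0.06, adjusted p = 2.12e-05). The ratio of Fads2 to Fads1 FPKM within a library was 1.21 ± 0.0875 with MK1775, 1.16 ± 0.115 under the siRNA label and 1.76 ± 0.109 in NC (SD, n = 3 each), with no overlap between treated and NC libraries. Nearly all of Fads2 was the transcript ENSMUST00000025567 (at least 99.55% in each library). Fads1 was mainly ENSMUST00000010807, and a second coding form, ENSMUST00000235160, was listed at 1.12 and 2.55 FPKM in NC libraries 2 and 3 and at 0 in the other 7. No stretch of 50 bases was shared between the main transcripts of Fads1 and Fads2 in GENCODE M21.

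RefSeq promoter windows (300 bases ending 50 bases after the start, GRCm38.p6) were at hand for 7 of the 10 genes, and not for Fads1, Scd1 and Scd2. That of Fads2, the gene with the smallest adjusted p, is shown for the reader to compare with those of Acsl3, Lpcat3 and Ptgs2 further on. Capitals mark matches, on either strand, to 5 motifs. The sterol regulatory element was searched as TCACNCCAC, and 1.24% of 32851 RefSeq promoter windows held it. The CCAAT box was in 37.4% of windows. The GC box was searched as GGGCGG and was in 35.7%. The E-box was searched as CACGTG, which is its own reverse complement, and was in 7.15%. The half-site of the cAMP response element was searched as TGACG and was in 20.8%. The Fads2 window (chr19:10101454-10101753, minus strand) held 1 GC box and no other match.
Fads2: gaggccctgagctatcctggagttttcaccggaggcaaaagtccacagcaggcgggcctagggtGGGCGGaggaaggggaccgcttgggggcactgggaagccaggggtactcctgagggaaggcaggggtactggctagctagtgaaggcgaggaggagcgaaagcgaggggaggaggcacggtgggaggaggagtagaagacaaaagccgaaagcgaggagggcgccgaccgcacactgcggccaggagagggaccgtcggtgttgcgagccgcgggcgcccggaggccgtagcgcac

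The elongases add a pair of carbons to acyl chains, Elovl5 on polyunsaturated chains of the Fads pathway and Elovl6 on saturated and monounsaturated chains. Elovl5 (chr9:77824646-77891801, plus strand) stayed within a narrow range, at 21.7, 22.3 and 21.6 FPKM with MK1775, 22.0, 20.7 and 19.3 FPKM under the siRNA label, and 24.0, 22.1 and 21.2 FPKM in NC. All 3 groups overlapped. The log2 fold change was -0.03 with MK1775 (95% interval -0.18 to 0.11, adjusted p = 0.717) and -0.11 under the siRNA label (95% interval -0.26 to 0.03, adjusted p = 0.191). The sign of the MK1775 value turned with median-of-ratios scaling (0.030), with quantile normalization (0.019) and without NC library 1 (0.014).

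Elovl6 (chr3:129326004-129432144, plus strand) had 6.93, 5.57 and 6.28 FPKM with MK1775, 5.36, 6.84 and 5.38 FPKM under the siRNA label, and 15.2, 5.12 and 8.03 FPKM in NC. The NC libraries spanned a range that held every treated library, and the named sums passed neither test (log2 fold change -0.41, adjusted p = 0.326 with MK1775, and -0.50, adjusted p = 0.228 under the siRNA label). An unnamed transcript of 5960 bases, beside 5951 for the main ENSMUST00000071402, held 1.18, 6.27 and 5.56 FPKM in the 3 NC libraries and 1.16 to 4.27 FPKM in treated libraries. With it added, Elovl6 had 8.08, 7.70 and 7.59 FPKM with MK1775, 7.87, 8.005 and 9.65 FPKM under the siRNA label, and 16.4, 11.4 and 13.6 FPKM in NC, without overlap between treated and NC libraries. On these sums Elovl6 fell by 0.74 with MK1775 (SE 0.12, adjusted p = 0.000775) and by 0.63 under the siRNA label (SE 0.12, adjusted p = 0.00188). Named sums also passed when NC library 2 was left out (-0.74, adjusted p = 0.0496 with MK1775, and -0.82, adjusted p = 0.0335 under the siRNA label).

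**Figure D3:**
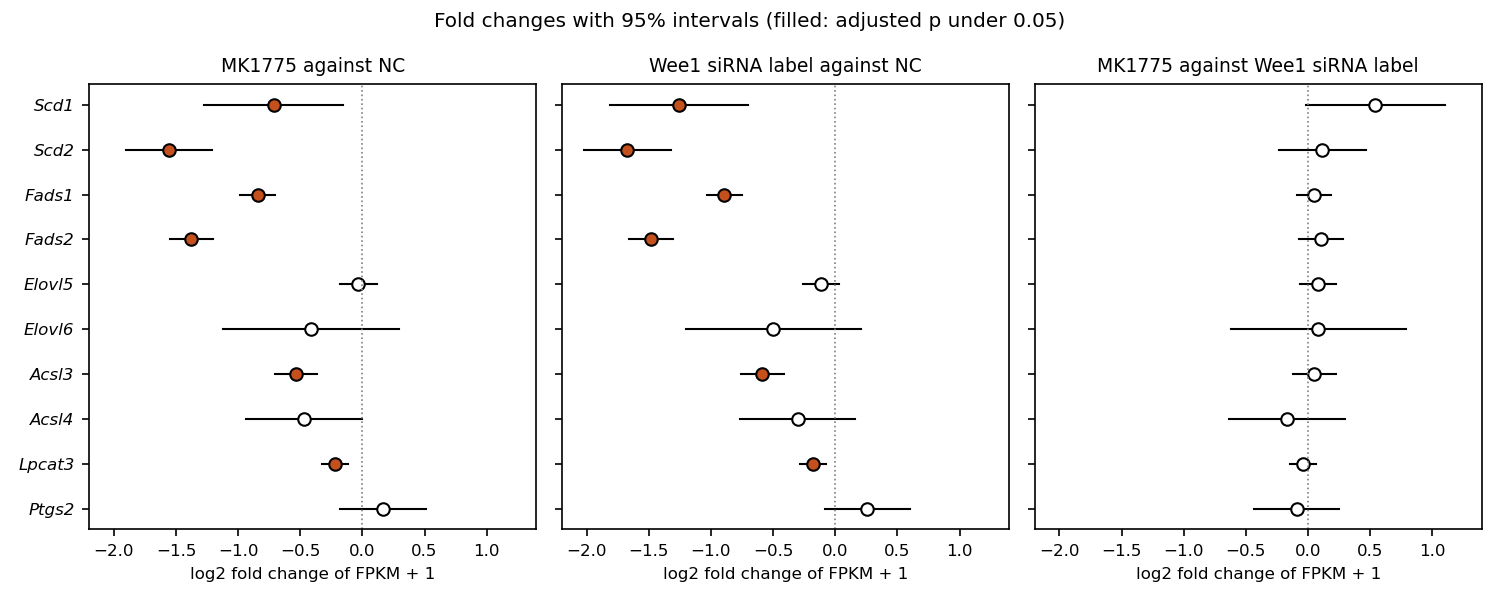
Log2 fold change of FPKM + 1 (x axis) for each of the 10 genes (rows) with its 95% interval, in MK1775 against NC, the Wee1 siRNA label against NC, and MK1775 against the siRNA label; filled points have an adjusted p under 0.05. Filled points lie between -1.67 and -0.18, all below 0, and no point is filled in the direct comparison of the treated groups.

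Acsl3 and Acsl4 attach coenzyme A to long-chain fatty acids, Acsl4 with a preference for arachidonic and adrenic acid, and Acsl3 is known for the activation of monounsaturated fatty acids. Acsl3 (chr1:78635542-78685460, plus strand) had 10.1, 10.8 and 9.90 FPKM with MK1775, 9.22, 10.5 and 9.94 FPKM under the siRNA label, and 16.5, 14.2 and 15.3 FPKM in NC. Every treated library was below every NC library. Mean FPKM was 1.49-fold lower with MK1775 (log2 fold change -0.53, SE 0.07, adjusted p = 0.000755) and 1.55-fold lower under the siRNA label (-0.59, SE 0.07, adjusted p = 0.000441). The deposited table places Acsl3 and Utp14b in a single locus, and from FPKM alone any reads they share cannot be told apart. The Acsl3 promoter window (chr1:78657575-78657874, plus strand) held 5 GC boxes and 1 CCAAT, the last of the GC boxes directly after the CCAAT.
Acsl3: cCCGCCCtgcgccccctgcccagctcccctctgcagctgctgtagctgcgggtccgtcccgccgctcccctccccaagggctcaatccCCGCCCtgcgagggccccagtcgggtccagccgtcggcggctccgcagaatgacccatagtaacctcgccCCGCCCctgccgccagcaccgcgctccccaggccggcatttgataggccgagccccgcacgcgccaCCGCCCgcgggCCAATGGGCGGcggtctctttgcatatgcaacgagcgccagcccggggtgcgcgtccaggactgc

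Acsl4 (chrX:141100989-141173531, minus strand), an enzyme that favours ferroptosis, had 9.76, 8.73 and 8.77 FPKM with MK1775, 8.53, 9.98 and 12.9 FPKM under the siRNA label, and 17.1, 9.57 and 13.2 FPKM in NC. NC library 2 lay within the range of both treated groups. The log2 fold change of -0.47 with MK1775 (95% interval -0.93 to -0.01, adjusted p = 0.0982) and that of -0.30 under the siRNA label (95% interval -0.77 to 0.16, adjusted p = 0.265) did not pass. Without NC library 2 the MK1775 value was -0.67 (adjusted p = 0.021). The ratio of Acsl4 to Acsl3 FPKM was 0.885 ± 0.0795 with MK1775, 1.056 ± 0.207 under the siRNA label and 0.856 ± 0.180 in NC (SD, n = 3 each), with overlap of all groups.

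Acsl4 is made in a long and a short coding form, of 711 and 670 codons in the GENCODE M21 models of the same transcript names. The short form held most of the FPKM in every library. The long form made up 8.46%, 22.0% and 11.9% of coding Acsl4 FPKM with MK1775, 12.9%, 0.574% and 11.2% under the siRNA label, and 4.26%, 15.6% and 14.9% in NC, and the ranges of all groups overlapped. In their GENCODE M21 models, the main transcripts of Acsl3 and Acsl4 shared no stretch of 50 bases, nor did those of Elovl5 and Elovl6. The model of the main Acsl3 transcript has 2976 bases and the deposited transcript 3752, so part of the latter was not compared.

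Lpcat3 (chr6:124639990-124681381, plus strand) inserts polyunsaturated chains, arachidonic acid above all, into lysophospholipids of the endoplasmic reticulum. It had 16.9, 16.6 and 16.9 FPKM with MK1775, 16.9, 17.2 and 17.7 FPKM under the siRNA label, and 19.99, 20.2 and 19.0 FPKM in NC. The groups did not overlap with NC, and the differences were small against those of the desaturases. The log2 fold change was -0.22 with MK1775 (SE 0.05, adjusted p = 0.00551) and -0.18 under the siRNA label (SE 0.05, adjusted p = 0.0129), and 31.8% of all genes tested had a lower one with MK1775 and 33.9% under the siRNA label. The Lpcat3 promoter window (chr6:124662854-124663153, plus strand) held 6 GC boxes and 4 CCAAT matches.
Lpcat3: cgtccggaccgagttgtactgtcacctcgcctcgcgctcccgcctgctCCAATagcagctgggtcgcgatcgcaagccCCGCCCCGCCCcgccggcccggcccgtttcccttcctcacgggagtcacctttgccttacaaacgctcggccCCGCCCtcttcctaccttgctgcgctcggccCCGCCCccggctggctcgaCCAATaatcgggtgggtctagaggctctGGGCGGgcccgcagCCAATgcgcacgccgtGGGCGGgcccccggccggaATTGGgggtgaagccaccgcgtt

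Ptgs2 (chr1:149975782-149983986, plus strand) turns arachidonic acid into the precursor of prostaglandins, and its mRNA is widely used as a marker of ferroptosis. It had 29.9, 24.1 and 30.1 FPKM with MK1775, 23.8, 33.2 and 33.3 FPKM under the siRNA label, and 25.7, 21.8 and 26.9 FPKM in NC. In each treated group 2 libraries were above all NC libraries and the third was within their range. The log2 fold change was 0.17 with MK1775 (95% interval -0.18 to 0.51, adjusted p = 0.417) and 0.26 under the siRNA label (95% interval -0.09 to 0.60, adjusted p = 0.201). Its locus held 3 unnamed transcripts of 4451, 4493 and 4526 bases, beside 4461 for the main ENSMUST00000035065. With these added, Ptgs2 had 33.3, 31.4 and 30.1 FPKM with MK1775, 30.6, 33.2 and 38.5 FPKM under the siRNA label, and 30.5, 22.8 and 26.9 FPKM in NC. On these sums the siRNA label passed the test (log2 fold change 0.34, SE 0.11, adjusted p = 0.0266) and MK1775 did not (0.24, SE 0.11, adjusted p = 0.0982). Named sums also passed for the siRNA label when its library 1 was left out (0.41, adjusted p = 0.0327).

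The Ptgs2 promoter window (chr1:150099781-150100080, plus strand), set beside those of Fads2, Acsl3 and Lpcat3, held 1 GC box. It also held an E-box that overlaps a half-site of the cAMP response element. These motifs were not particular to Ptgs2 among the windows searched. The Elovl5 window, not shown, held an E-box, half-sites of the cAMP response element and CCAAT matches. That of Acsl4 held GC boxes and a half-site, and that of Elovl6 held no match. The sterol regulatory element as searched was found in none of the 7 windows, which says only that these letters were not there. Fads1, Scd1 and Scd2, which fell in both comparisons with NC, had no window and were not searched.
Ptgs2: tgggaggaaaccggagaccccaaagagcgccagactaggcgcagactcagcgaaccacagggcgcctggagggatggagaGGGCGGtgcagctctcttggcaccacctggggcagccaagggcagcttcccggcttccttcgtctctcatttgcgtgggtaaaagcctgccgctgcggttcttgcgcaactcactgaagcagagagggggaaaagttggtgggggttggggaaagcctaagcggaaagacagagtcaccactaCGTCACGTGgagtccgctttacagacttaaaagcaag

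With unnamed transcripts added wherever a locus holds a single named gene, 7 of the 10 genes fell in each comparison with NC, and Ptgs2 rose under the siRNA label. By the same sums 28.8% of the 10938 genes tested were called lower and 25.3% higher with MK1775, and 28.2% lower and 28% higher under the siRNA label. Unnamed transcripts held 12.1% to 12.6% of all FPKM with MK1775, 12.3% to 12.8% under the siRNA label and 10.0% to 11.2% in NC.

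**Figure D4:**
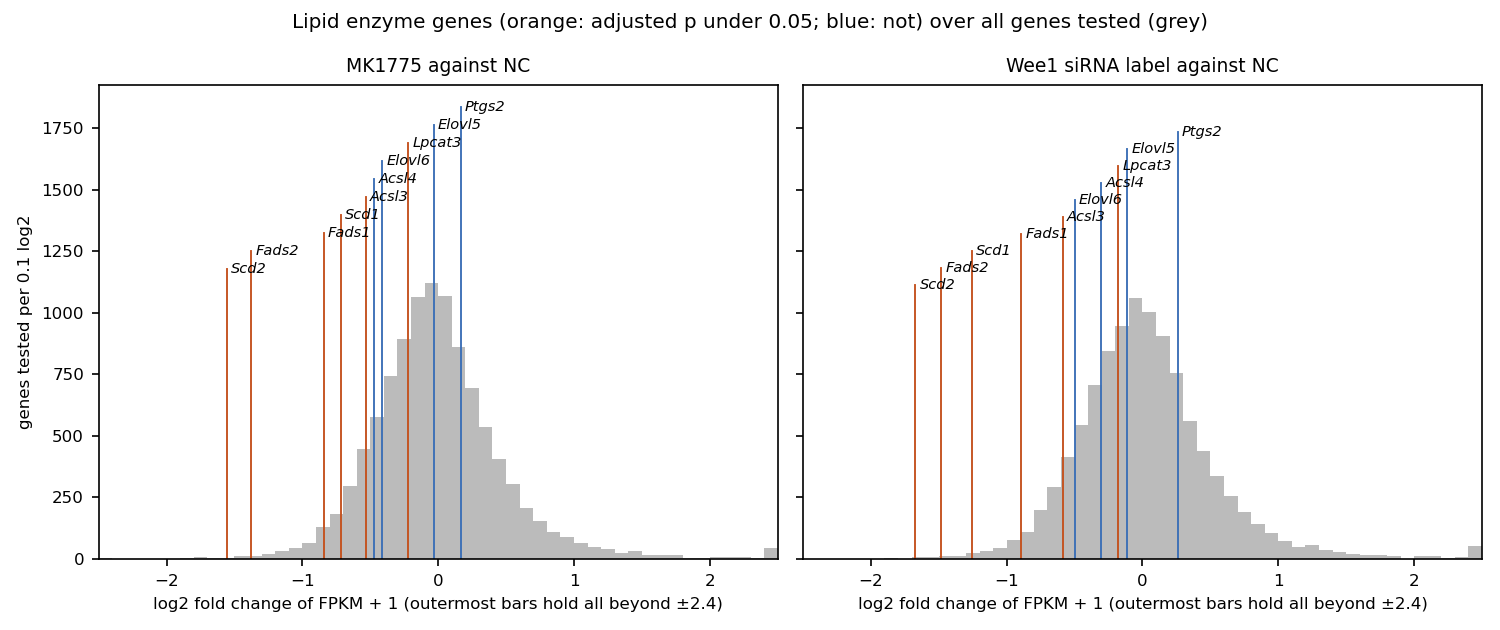
Number of genes tested (grey bars, per 0.1 on the log2 scale) by log2 fold change of FPKM + 1, for MK1775 and the Wee1 siRNA label against NC, with lines at the 10 lipid enzyme genes (orange where the adjusted p was under 0.05, blue where not; line heights carry no value). Scd2 and Fads2 lie in the far left of both distributions, and Elovl5 lies near the median of all genes, -0.04 and -0.01.

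The treated groups were also compared directly. None of the 10 genes passed between MK1775 and the siRNA label (limma), and 0 of 10 had an unadjusted p under 0.05. Of all genes tested 0.00957% passed, which is a single gene, Tmx2, named here after its value was seen, and 5.89% had an unadjusted p under 0.05. Log2 differences ran between -0.17 for Acsl4 and 0.54 for Scd1. The intervals were narrow for Lpcat3 (-0.14 to 0.07), Fads1 (-0.09 to 0.19), Elovl5 (-0.07 to 0.23), Acsl3 (-0.12 to 0.22) and Fads2 (-0.07 to 0.28). They were wider for Scd2 (-0.23 to 0.46), Ptgs2 (-0.44 to 0.25), Acsl4 (-0.63 to 0.30), Elovl6 (-0.62 to 0.79) and Scd1 (-0.02 to 1.10). The treated groups did not overlap for 2 of the 10, Scd1 and Lpcat3, against 11.9% of all genes tested. With the unnamed transcript added, the difference for Scd1 was 0.05 (95% interval -0.06 to 0.16, adjusted p = 0.856).

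The order of levels among the 10 genes, per length and from named transcripts only, also differed between treated and NC libraries. With MK1775 the order was Scd2 (mean 38.7 FPKM), Ptgs2 (28.0), Elovl5 (21.9), Lpcat3 (16.8), Fads2 (11.5), Acsl3 (10.3), Scd1 (9.63), Fads1 (9.54), Acsl4 (9.09) and Elovl6 (6.26), and neighbours overlapped from Acsl3 to Acsl4. Under the siRNA label it was Scd2 (35.5 FPKM), Ptgs2 (30.1), Elovl5 (20.7), Lpcat3 (17.3), Fads2 (10.7), Acsl4 (10.5), Acsl3 (9.90), Fads1 (9.21), Scd1 (6.66) and Elovl6 (5.86), and neighbours overlapped between Scd2 and Ptgs2, from Fads2 to Fads1, and between Scd1 and Elovl6. In NC it was Scd2 (116 FPKM), Fads2 (31.6), Ptgs2 (24.8), Elovl5 (22.4), Lpcat3 (19.7), Fads1 (17.9), Scd1 (16.5), Acsl3 (15.4), Acsl4 (13.3) and Elovl6 (9.45), and neighbours overlapped between Ptgs2 and Elovl5 and from Fads1 to Elovl6. On these named sums Fads2 thus stood below Ptgs2, Elovl5 and Lpcat3 in both treated groups and above all 3 in NC, without overlap. With unnamed transcripts added, Ptgs2 had 30.5 FPKM in NC library 1, above the 29.7 FPKM of Fads2 there. Fads2 and Ptgs2 then overlapped in NC.

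For 4 of the genes, the genes with the most similar pattern were looked up over the 9 libraries, by Pearson correlation of log2(FPKM + 1), as a description. The treated and NC libraries stand apart for 3 of these 4, so the coefficients mostly restate that gap. Nearest to Fads2 were Dusp6 (r = 0.998), Tamm41 (r = 0.998) and Wdr1 (r = 0.998). Nearest to Scd2 were Cdk2 (r = 0.993), Sdc1 (r = 0.992) and Adh5 (r = 0.992), and nearest to Acsl3 were Spcs3 (r = 0.991), Rhpn2 (r = 0.984) and Sinhcaf (r = 0.984). For Ptgs2 they were Rpl4 (r = 0.944), Fmr1 (r = 0.938) and Mphosph8 (r = 0.937).

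Genes around these enzymes were described from 6 lists. The median log2 fold change over all genes tested was -0.04 with MK1775 and -0.01 under the siRNA label. Among other desaturases, elongases and partners of the elongation cycle, 6 of 13 genes tested fell with MK1775 and 0 rose, with a median log2 fold change of -0.34, and 8 fell and 0 rose under the siRNA label, with a median of -0.32, beside 23.1% lower and 17.9% higher with MK1775 and 23.2% lower and 19.6% higher under the siRNA label over all genes tested. Tecr, the last reductase of the elongation cycle, averaged 47.0 ± 1.14 FPKM with MK1775, 48.7 ± 0.724 FPKM under the siRNA label and 67.2 ± 4.97 FPKM in NC (SD, n = 3 each), and fell by 0.51 with MK1775 (adjusted p = 0.00023) and 0.46 under the siRNA label (adjusted p = 0.000373). Cyb5b, a cytochrome b5 of the outer mitochondrial membrane, averaged 51.2 ± 0.960 FPKM with MK1775, 49.8 ± 0.516 FPKM under the siRNA label and 65.05 ± 2.71 FPKM in NC and fell by 0.34 with MK1775 (adjusted p = 0.000392) and 0.38 under the siRNA label (adjusted p = 0.000219).

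In the list of fatty acid synthesis and its regulators, 10 of 17 genes fell and 2 rose in each comparison, with medians of -0.40 with MK1775 and -0.38 under the siRNA label, beside 23.1% lower and 17.9% higher with MK1775 and 23.2% lower and 19.6% higher under the siRNA label over all genes tested. Srebf1 encodes the transcription factor SREBP-1, which is known to drive genes of fatty acid synthesis and desaturation, Scd1 and Fads2 among them. It had 9.02, 10.6 and 11.4 FPKM with MK1775, 12.9, 11.98 and 9.53 FPKM under the siRNA label, and 20.3, 21.8 and 20.8 FPKM in NC, and fell by 0.96 with MK1775 (SE 0.12, adjusted p = 0.000391) and 0.83 under the siRNA label (SE 0.12, adjusted p = 0.000781). Insig1, a sterol-responsive protein that retains SREBPs in the endoplasmic reticulum, averaged 5.90 ± 0.439 FPKM with MK1775, 5.78 ± 0.382 FPKM under the siRNA label and 13.9 ± 0.530 FPKM in NC, and fell by 1.11 with MK1775 (adjusted p = 1.67e-05) and 1.14 under the siRNA label (adjusted p = 1.54e-05). Insig2, by contrast, was among the genes of this list that rose. It averaged 14.5 FPKM with MK1775, 14.4 FPKM under the siRNA label and 10.2 FPKM in NC. The rise was 0.47 in each comparison (adjusted p = 0.00129 with MK1775 and 0.00137 under the siRNA label). Acly, which supplies cytosolic acetyl-CoA, averaged 32.5 ± 0.501 FPKM with MK1775, 30.4 ± 4.14 FPKM under the siRNA label and 51.2 ± 2.00 FPKM in NC, and fell by 0.64 with MK1775 (adjusted p = 0.000863) and 0.74 under the siRNA label (adjusted p = 0.000391).

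Genes of fatty acid activation and phospholipid remodelling moved both ways: 5 of 17 fell and 3 rose with MK1775 (median -0.06), and 6 fell and 5 rose under the siRNA label (median 0.12). Over all genes tested 23.1% were lower and 17.9% higher with MK1775, so the MK1775 counts were near the background, and 23.2% were lower and 19.6% higher under the siRNA label. Lpcat1, an acyltransferase that favours saturated chains, averaged 7.33 ± 0.424 FPKM with MK1775, 7.38 ± 0.632 FPKM under the siRNA label and 12.9 ± 0.729 FPKM in NC, and fell by 0.74 with MK1775 (adjusted p = 0.000178) and 0.73 under the siRNA label (adjusted p = 0.000182). Mboat1, a lysophospholipid acyltransferase that favours oleic acid, averaged 1.67 ± 0.0584 FPKM with MK1775, 1.92 ± 0.229 FPKM under the siRNA label and 3.52 ± 0.308 FPKM in NC and fell by 0.76 with MK1775 (adjusted p = 0.000308) and 0.63 under the siRNA label (adjusted p = 0.000732).

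Of the prostaglandin and lipoxygenase list, 7 of 26 genes reached the level for testing, and 1 fell and 0 rose in each comparison (median -0.07 with MK1775 and -0.08 under the siRNA label), no more than the background of 23.1% lower with MK1775 and 23.2% lower under the siRNA label. That gene was Pla2g4a, the cytosolic phospholipase that releases arachidonic acid, at 17.4 ± 0.543 FPKM with MK1775, 17.4 ± 2.95 FPKM under the siRNA label and 22.8 ± 2.89 FPKM in NC. It fell by 0.37 in each comparison, with an adjusted p near the threshold (0.0469 with MK1775 and 0.0426 under the siRNA label). The call was lost in 11 of 18 alternative fits with MK1775 (adjusted p 0.0582 to 0.134) and in 13 of 18 under the siRNA label (0.0534 to 0.121). These include leaving out any 1 MK1775 library, siRNA library 2, NC library 1 or NC library 3 in both comparisons, and siRNA library 1 under the siRNA label. No lipoxygenase of the list reached the level for testing. Aloxe3 was at 0 in every NC library and averaged 0.684 ± 0.0625 FPKM with MK1775 and 0.992 ± 0.145 FPKM under the siRNA label. The other lipoxygenases stayed at or below 0.21 FPKM in every library. Among 16 genes of the oxidation of unsaturated fatty acids, 7 fell and 5 rose with MK1775 (median -0.15), and 6 fell and 5 rose under the siRNA label (median -0.18), beside 23.1% lower and 17.9% higher with MK1775 and 23.2% lower and 19.6% higher under the siRNA label over all genes tested. Cpt1a, the rate-setting carnitine palmitoyltransferase of mitochondrial import, rose to 8.63 ± 0.106 FPKM with MK1775 and 9.62 ± 0.268 FPKM under the siRNA label, against 5.13 ± 0.569 FPKM in NC (log2 fold change 0.65 with MK1775, adjusted p = 0.00027, and 0.80 under the siRNA label, adjusted p = 0.000101). Hadhb, a subunit of the mitochondrial trifunctional protein, averaged 41.6 ± 0.796 FPKM with MK1775, 39.8 ± 1.14 FPKM under the siRNA label and 29.2 ± 1.07 FPKM in NC (0.50 with MK1775, adjusted p = 8.15e-05, and 0.43 under the siRNA label, adjusted p = 0.000146). By its most abundant transcript Hadhb did not pass (adjusted p = 0.314 with MK1775 and 0.909 under the siRNA label).

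Ether lipids are a further source of polyunsaturated chains, made in part in peroxisomes. Of 9 genes tested in that list, 2 fell and 1 rose with MK1775 (median 0.10), and 2 fell and 2 rose under the siRNA label (median -0.06). These counts were near the background of 23.1% lower and 17.9% higher with MK1775 and 23.2% lower and 19.6% higher under the siRNA label. Gnpat, the first acyltransferase of ether lipid synthesis, averaged 11.3 ± 0.864 FPKM with MK1775, 10.9 ± 2.33 FPKM under the siRNA label and 17.8 ± 2.13 FPKM in NC, and fell by 0.61 with MK1775 (adjusted p = 0.0104) and 0.67 under the siRNA label (adjusted p = 0.00651). Pex10, a ubiquitin ligase of the peroxisome membrane, fell by 0.53 with MK1775 (adjusted p = 0.00433) and 0.45 under the siRNA label (adjusted p = 0.00872). Pex3, another protein of the peroxisome membrane, rose by 0.41 with MK1775 (adjusted p = 0.0123) and 0.47 under the siRNA label (adjusted p = 0.00621). By its most abundant transcript the Pex3 rise with MK1775 did not pass (adjusted p = 0.0559). No gene of the 6 lists passed in the direct comparison of the treated groups.

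**Figure D5:**
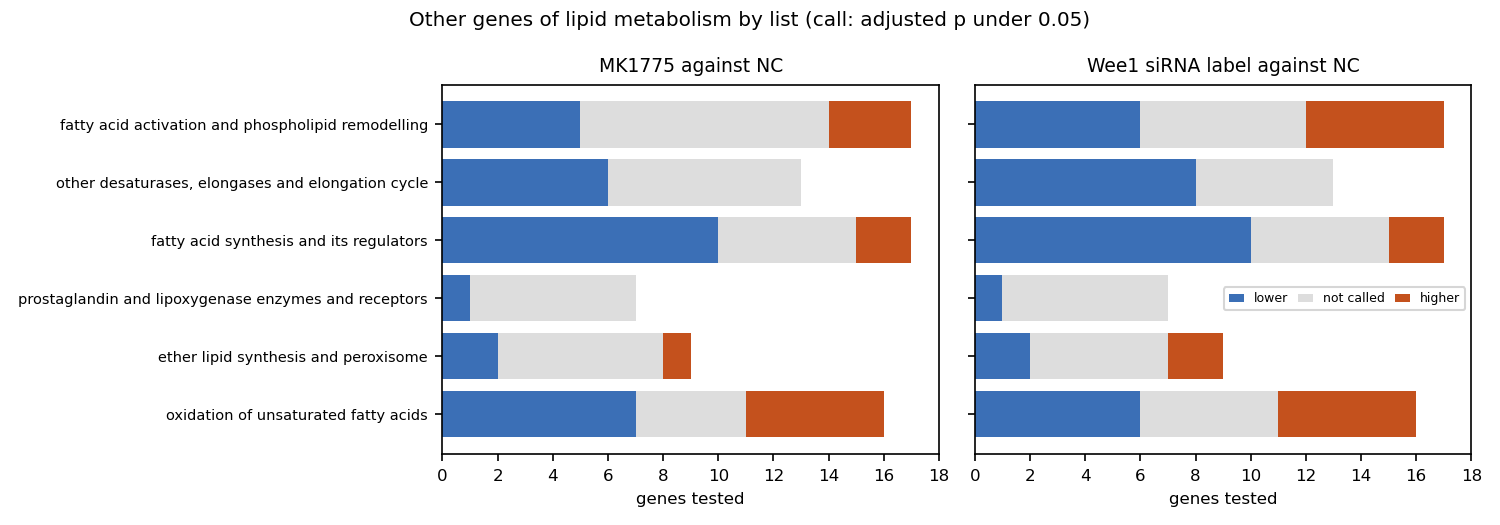
Number of genes tested in each of 6 lists of lipid metabolism (rows) that were lower, not called or higher at an adjusted p under 0.05, for MK1775 and the Wee1 siRNA label against NC. In the synthesis list 10 of 17 genes were lower in each comparison, and among the other desaturases and elongases 0 were higher.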

How the data were processed

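RNA from 4T1 cells was sequenced in 9 libraries; per the labels' protocols, libraries were made from total RNA with an NEBNext Ultra kit. The submitters' processing notes name StringTie, HISAT2, FastQC and Trim Galore, give no version of any, and name GRCm39 as the build. The authors deposited FPKM values per transcript and library (158719 transcripts, 17991 of them without a gene name). Strand and poly(A) selection are not stated in the labels used here. Low values were not whole multiples of a common step (best share within 0.1 of a multiple 25.5% to 32.3% per library), so reads were not recovered and depth is unknown.

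FPKM was summed per gene name, leaving out 19 names on more than 1 chromosome. Genes whose FPKM averaged 1 or more across all 9 libraries were fitted on log2(FPKM + 1) with limma 3.58.1 in R 4.3.3 (lmFit, contrasts.fit, eBayes with trend; 3 group means, 3 contrasts, two-sided, Benjamini-Hochberg over all genes tested, threshold 0.05). The fit was tested on simulated data with independent normal noise. That setting cannot show how the fit behaves where libraries are not independent or FPKM is assigned to another transcript. With 3 libraries a group, the smallest exact permutation p is 0.1. This scale understates changes of low genes. Gene coordinates are the span of named transcripts in the deposited table. Promoters are RefSeq's (GRCm38.p6), and transcript sequences and codons GENCODE M21's, a different build from that of the deposited values.

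The genes, lists and tests were chosen with earlier results of these data known. Beside the 10 genes and Wee1, the text names for each list the 2 called genes with the smallest adjusted p in each comparison with NC, and the 3 genes most correlated with each of 4 genes. Insig2 and Aloxe3 were named in addition, after their values were seen. The alternatives tried were 2 other filters, another pseudocount, 2 scalings, a replicate block, fits of 2 groups, 2 other values per gene, and leaving out each library.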

Additional observations from a re-analysis of the deposited data

How the results depend on the processing

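Over 18 alternative fits and 3 comparisons, 515 of 540 log2 fold changes of the 10 genes kept their direction and side of the threshold, 13 (Scd1 with MK1775) lost the call, 7 gained it and 5 changed sign. In several of these fits the log2 fold change could not move, and only the adjusted p could. These were the other filters, the replicate block, the fits of 2 groups, and leaving out a library of the group not compared. The count of 515 thus holds values whose direction was fixed in advance. The sign changes were those of Elovl5 with MK1775 against NC (0.030 with median-of-ratios scaling, 0.019 with quantile normalization, and -0.072 to 0.014 when leaving out 1 library, 0.014 without NC library 1), of Elovl6 between MK1775 and the siRNA label with unnamed transcripts added (-0.11), and of Ptgs2 in that comparison without MK1775 library 2 (0.011, the range when leaving out 1 library being -0.25 to 0.011); none of these passed the test. The gains were Elovl6 in both comparisons with NC, Acsl4 with MK1775 and Ptgs2 under the siRNA label, as given with each gene. For Wee1 and the list genes named by smallest adjusted p, 473 of 500 values kept direction and side, and 27 lost the call. Genes lower among the 10 numbered 5 to 7 with MK1775 and 6 to 7 under the siRNA label, and genes higher 0 with MK1775 and 0 to 1 under the siRNA label (1, Ptgs2, with unnamed transcripts added, and 0 to 1 when leaving out 1 library). Over the whole table, 4282 genes passed with MK1775 (3068 to 5921 over the alternatives) and 4474 under the siRNA label (3191 to 6145). Between the treated groups 1 gene passed, and 11 without a filter, 0 with the replicate block, 2 by the most abundant transcript and 0 to 3 when leaving out 1 library. The cause of these changes was not tested. Replicate numbers did not pair the libraries: same-numbered libraries' deviations from their group means correlated at -0.12 to 0.04, and not every library correlated best with its own number. With the replicate number as a block, 5 of the 10 genes fell with MK1775, Scd1 losing its call (adjusted p = 0.0626), and 6 under the siRNA label; 3881 genes passed over the whole table with MK1775 and 4079 under the siRNA label. Without counts, depth sets no stated limit on low transcripts.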
